A study of Mus musculus with 280 samples.

Results

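The 10 genes described here encode proteins of the nucleolus and of the particles that modify and cut ribosomal RNA: Ncl, Npm1, Npm3, Fbl, Nop56, Nop58, Dkc1, Nolc1, Nhp2 and Rrp9. They were chosen by name, with earlier results of these data known. All 10 were found among the 11076 genes of the table of single mouse embryos. All embryos were of the FVB inbred strain and came from in vitro fertilization of oocytes from females on control diet, with sperm of males fed either a control or a low protein diet, and they were cultured in KSOM, a medium for preimplantation embryos. There were 80 embryos of 2 cells (41 with control and 39 with low protein sires), 82 of 4 cells (42 and 40), 4 of 8 cells (2 and 2), 73 morulae (38 and 35), 36 blastocysts (14 and 22) and 5 late blastocysts (2 and 3). The diet was given to the sire, 10 per diet, and no embryo or female received it.

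The nucleolus is the nuclear body in which RNA polymerase I transcribes ribosomal RNA and in which that RNA is cut, modified and packed with ribosomal proteins. Small nucleolar RNAs guide most of the modifications, those of the box C/D kind for ribose methylation and those of the box H/ACA kind for pseudouridine. The mouse oocyte stores compact nucleolus precursor bodies, and working nucleoli are rebuilt from them in the first cell cycles, when the embryo's own genome is switched on.

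From the 2-cell to the 4-cell stage, 9 of the 10 genes rose in control embryos, by 1.33 to 3.10 log2 units, and Npm3 was the exception. At that step 34.9% of the 10880 genes tested were called higher and 36.9% lower, so many genes moved both ways, and the median change of the 10 genes was 2.27 log2 units against 0.01 for all genes. Of the 10, Nolc1 and Rrp9 fell past the threshold from the 4-cell stage to the morula, beside 26.8% of all genes called lower, and Nolc1, Nhp2, Npm1 and Rrp9 fell from morula to blastocyst, beside 17.1%. A gene is called where the limma adjusted p is under 0.05 and the change is at least 1 log2 unit.

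Values are TPM, a length-corrected share of each embryo's own total from which read numbers cannot be recovered, and the depth is unknown. Fewer cells carrying an RNA and less of it per cell cannot be told apart in whole embryos. Genes at 1 TPM or more per embryo ranged from 3626 to 10204, with 1 embryo under 5000. Marker RNAs were compared with the stage labels: the summed level of 5 genes of the 2-cell stage had a median of 2893 TPM in 2-cell and 16.8 TPM in 4-cell embryos, that of 6 oocyte genes went from 16412 to 235 TPM, and that of 6 trophectoderm genes was 728 TPM in morulae (112 to 2141) and 12054 TPM in blastocysts (479 to 20930). All 5 blastocysts of plate 6, whose sires were on low protein diet, had trophectoderm sums of 479 to 1544 TPM, within the morula range and against their stage label, while the 31 others had at least 3146 TPM. Without these 5 the blastocyst medians given below go from 126.5 to 134 TPM for Ncl, from 161 to 152 TPM for Fbl, from 4.10 to 3.40 TPM for Npm3 and from 543 to 514 TPM for Nhp2. The fits of control embryos hold none of the 5. Of the cumulus cell list only Cyp19a1 was in the table, with a median of 5.78 TPM in 2-cell embryos and 0 TPM from the 4-cell stage on. Of the sperm list only Prm2 was, with a median of 3.58 TPM in 2-cell embryos and 0 TPM later. Embryos were processed on 8 plates. In 4-cell embryos of plate 5 the ribosomal RNA precursor Rn45s had a median of 244250 TPM, against 13994 to 84250 TPM on other plates. In 2-cell embryos of plate 5 its median was 172860 TPM, against 3756 to 27479 TPM on other plates.

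The DNA upstream of 5 of the genes is shown. Nop56, Nop58, Nhp2 and Nolc1 are 4 of the 9 genes that rose from the 2-cell to the 4-cell stage, and Npm3 did not rise. The windows of Ncl and Dkc1, which also rose, are not printed. That of Dkc1 held no GGGCGG on either strand, so the printed set is a selection. Each line holds 130 bases from RefSeq on GRCm38 (mm10), on the gene's strand and ending before the first transcribed base of both RefSeq and GENCODE. Capitals mark GGGCGG, the GC box bound by Sp factors, CCAAT, the box bound by NF-Y, and CCGGAAG, a motif of ETS factors, each on either strand.
Nop56, plus strand, chr2:130274282-130274411: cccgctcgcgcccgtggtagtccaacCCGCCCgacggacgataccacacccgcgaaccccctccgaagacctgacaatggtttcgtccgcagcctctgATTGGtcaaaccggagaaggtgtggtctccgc
Nop58, plus strand, chr1:59684841-59684970: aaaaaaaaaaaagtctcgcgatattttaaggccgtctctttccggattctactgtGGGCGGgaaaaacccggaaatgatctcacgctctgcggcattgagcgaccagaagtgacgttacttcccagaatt
Nhp2, plus strand, chr11:51619605-51619734: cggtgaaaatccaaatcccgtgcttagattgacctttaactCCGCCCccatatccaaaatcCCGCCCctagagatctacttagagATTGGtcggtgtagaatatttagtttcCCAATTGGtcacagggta
Nolc1, plus strand, chr19:46075717-46075846: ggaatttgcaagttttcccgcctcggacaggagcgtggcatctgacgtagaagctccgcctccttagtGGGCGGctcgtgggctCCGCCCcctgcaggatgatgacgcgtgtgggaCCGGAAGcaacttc
Npm3, minus strand, chr19:45749592-45749721: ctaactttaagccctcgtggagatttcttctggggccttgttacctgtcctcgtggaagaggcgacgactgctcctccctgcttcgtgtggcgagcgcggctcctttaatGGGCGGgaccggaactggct

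The RefSeq table held an upstream window for 8 of the 10 genes. Over the full 250 bases before the start, GGGCGG or CCGCCC was present in 6 of those 8 genes (Nop58, Ncl, Nop56, Nhp2, Npm3 and Nolc1) and in 32.7% of all 32851 windows. CCAAT or ATTGG was present in 3 of 8 (Nop56, Rrp9 and Nhp2) and in 33.8% of all windows, and CCGGAAG or CTTCCGG in Nhp2 and Nolc1 and in 6.91% of all. The E-box CACGTG, the motif bound by Myc with Max, was in 0 of 8 windows and in 6.02% of all, and TATAAA or TTTATA was in that of Dkc1 and in 12.4% of all. The GC box stood upstream of Npm3, which did not rise, and of Nop58, Ncl, Nop56, Nhp2 and Nolc1, which did. It was not found in the windows of Rrp9 and Dkc1, which also rose. Any part of these motifs in the rise was not tested.

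On mm10, GENCODE vM21 places Ncl at chr1:86344719-86359400, Nop58 at chr1:59684971-59719044, Nop56 at chr2:130274430-130279313, Fbl at chr7:28169710-28179269 and Rrp9 at chr9:106475963-106485424. It places Npm1 at chr11:33152287-33163206, Nhp2 at chr11:51619735-51623714, Npm3 at chr19:45747734-45749591, Nolc1 at chr19:46075863-46085530 and Dkc1 at chrX:75095854-75109777. A feature that their choice did not use is that 4 of them host small nucleolar RNA genes of GENCODE vM21 on their own strand: 5 lie within Nop56, 4 within Nop58, 3 within Ncl and 1 within Dkc1. Of the 10291 protein-coding genes of the table found in GENCODE, 1.79% hold one. The small nucleolar RNAs themselves were not analysed here.

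**Figure D1:**
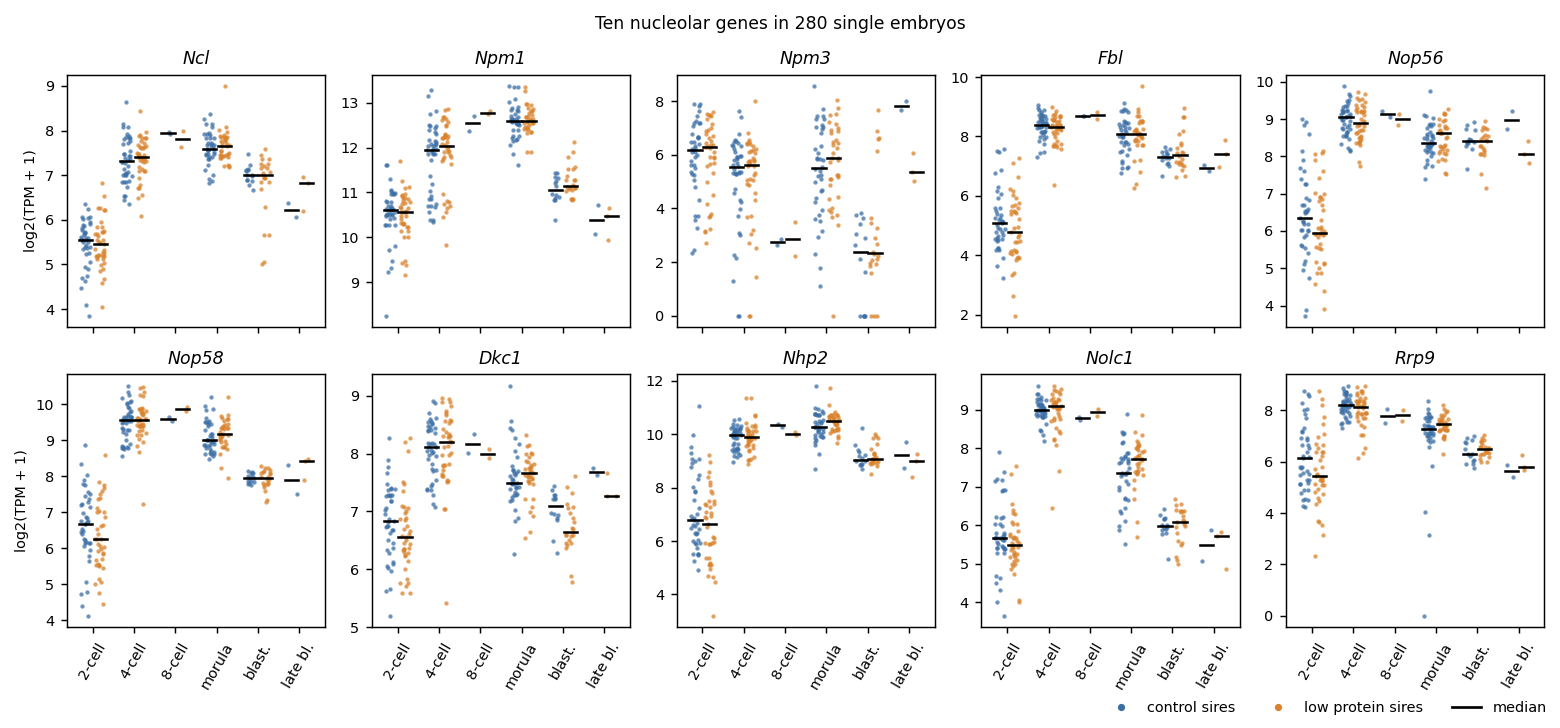
Log2 of TPM plus 1 for each gene in each of 280 embryos (points), by stage and by diet of the sire, with the median of each group as a bar. In 9 of the panels the 4-cell points lie mostly above the 2-cell points, while the Npm3 points spread over the whole axis at most stages.

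The nucleolar proteins Ncl and Npm1 started from different levels. Ncl encodes nucleolin, which binds ribosomal RNA in the dense fibrillar part of the nucleolus. Across both diets it ran from 13.4 to 113 TPM around a median of 44.9 TPM in 2-cell embryos (n = 80), and from 67.1 to 401 TPM around 166 TPM in 4-cell embryos (n = 82). All 82 of the 4-cell embryos were above the 2-cell median, and 71 were above the highest 2-cell embryo. The change in control embryos was 1.95 ± 0.09 log2 units (SE; limma adjusted p = 6.4e-45), and it was positive within each of the 6 plates that held both stages. The morula median was 200 TPM, a difference from the 4-cell stage of 0.09 ± 0.09 log2 units (adjusted p = 0.409). In blastocysts the median was 126.5 TPM, and the fall of 0.86 ± 0.15 log2 units passed on p (adjusted p = 7.7e-07) and stayed under 1 log2 unit, while in low protein embryos it was 1.17 ± 0.15 log2 units and passed both criteria. Without plate 6 the low protein value was -0.78 and was not called. Within plates the difference in mean log2 value over both diets was -0.61 on plate 2, -0.44 on plate 3 and -1.96 on plate 6, where no control blastocyst lies, so diet and plate cannot be told apart there.

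Npm1 encodes nucleophosmin, an abundant chaperone of the granular part of the nucleolus. Per length it had the highest TPM of the 10 genes in all but 1 of the 280 embryos. Its median was 1519 TPM in 2-cell embryos (305 to 3321), 3994 TPM in 4-cell embryos (911 to 9892), 6165 TPM in morulae (3128 to 10563) and 2250 TPM in blastocysts (1345 to 4473). Control embryos gained 1.46 ± 0.09 log2 units from the 2-cell to the 4-cell stage (limma adjusted p = 3.2e-34) and a further 0.37 ± 0.09 to the morula (adjusted p = 0.00021), the latter short of the size required. From morula to blastocyst Npm1 fell by 1.32 ± 0.14 log2 units (adjusted p = 7.6e-14), and 33 of 36 blastocysts lay below the lowest morula, among them all 31 outside plate 6. The 4-cell embryos of plate 5 had a median of 1659 TPM of Npm1, where the plate medians of the others lay between 3628 and 6894 TPM. The 2-cell embryos of plate 5 had a median of 694 TPM, against 1198 to 3148 TPM on other plates. Both stages of plate 5 had the high Rn45s. The part of plate 5 in the result was not tested, and the rise in Npm1 was positive in each of the 6 plates, from 0.86 to 1.79 log2 units.

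Npm3 encodes another nucleoplasmin family protein, which binds nucleophosmin. Its 2-cell median was 73.7 TPM (4.01 to 237), its 4-cell median 47.4 TPM (0 to 254), its morula median 54.7 TPM (0 to 376) and its blastocyst median 4.10 TPM (0 to 203). These ranges overlapped at every step. It went by -0.57 ± 0.24 log2 units from the 2-cell to the 4-cell stage in control embryos (limma adjusted p = 0.021) and by -0.78 ± 0.21 in low protein embryos (adjusted p = 0.00031), neither of them large enough to be called, while on plate 3 alone it was -1.32 (adjusted p = 0.034) and was called. From morula to blastocyst it was not called (-0.68, adjusted p = 0.18), but it was with a pseudocount of 0.1 (-1.55), without the plate term (-3.43) and on plate 3 alone (-1.77). Over the whole course from the 2-cell stage to the blastocyst it fell by 1.19 ± 0.38 log2 units (adjusted p = 0.0034), and it was not called after quantile normalization (-0.44) or in low protein embryos (-0.84).

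Npm3 differed between plates at the 4 stages that lie on several of them. In 2-cell embryos the plate medians were 9.76 TPM on plate 2 and 12.02 TPM on plate 3, against 37.6 to 146 TPM on plates 1, 4, 5 and 6. In 4-cell embryos they were 3.85 TPM on plate 2 and 6.50 TPM on plate 3, against 16.97 to 84.8 TPM on the other plates. In morulae they were 2.43 and 11.2 TPM on those same plates, against 34.2 to 132 TPM elsewhere. The low blastocyst median came from plates 2 and 3, which held 31 of the 36 blastocysts, while the 5 blastocysts of plate 6 had 70.1, 95.4, 118, 97.3 and 203 TPM. The 13 embryos in which Npm3 was listed at 0 were all on plates 2 and 3. GENCODE names a processed copy, Npm3-ps1, and how the authors' counting shared reads between such copies is not given in the sources used here, so the value of Npm3 is uncertain.

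**Figure D2:**
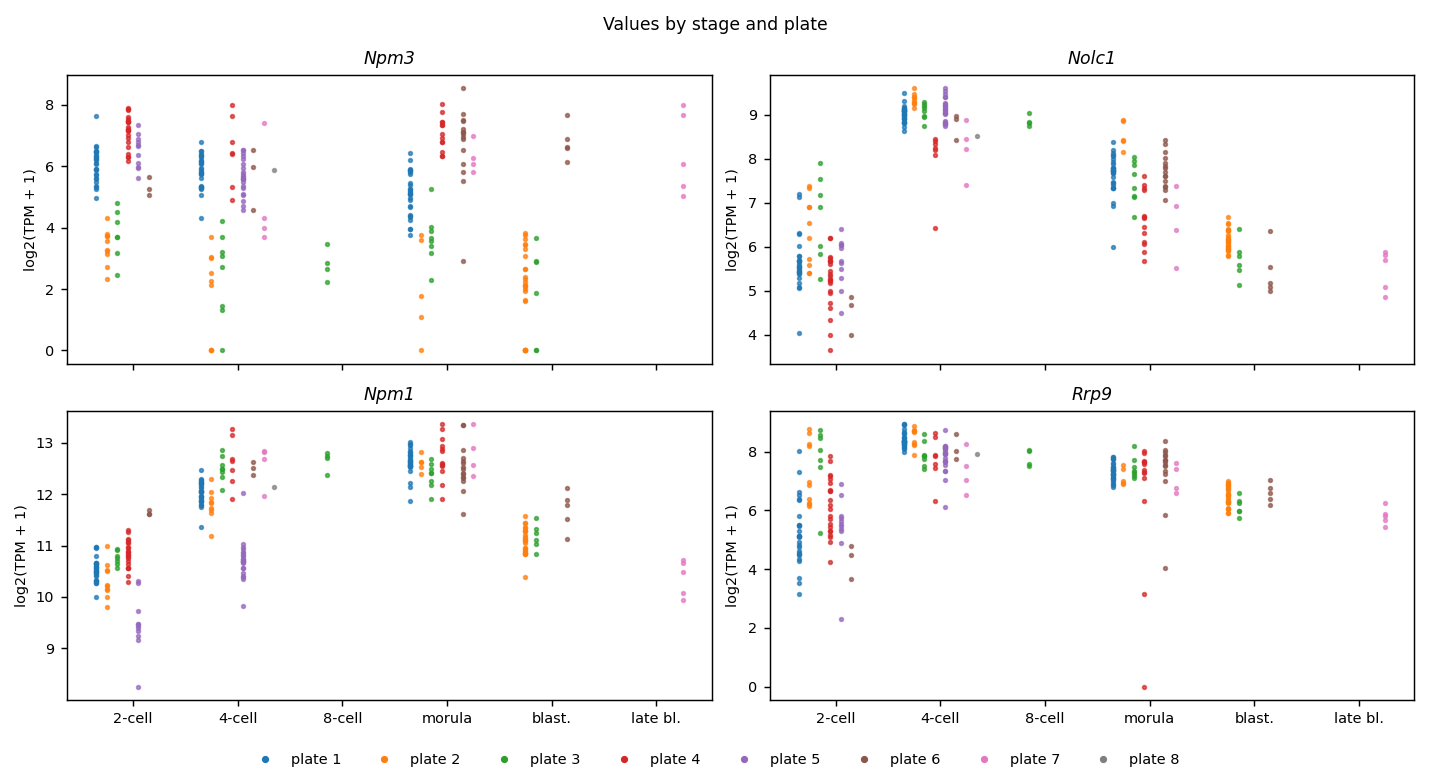
Log2 of TPM plus 1 of Npm3, Nolc1, Npm1 and Rrp9 in each embryo by stage, coloured by plate. Npm3 is low on plates 2 and 3 at each stage found there, while the stage pattern of Nolc1 recurs across plates.

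The box C/D core genes Fbl, Nop56 and Nop58 all rose. Fbl encodes fibrillarin, the enzyme that methylates ribosomal RNA. It ran from 2.90 to 189 TPM around a median of 29.8 TPM in 2-cell embryos (n = 80) and from 81 to 531 TPM around 327 TPM in 4-cell embryos (n = 82), with 78 of the 4-cell embryos above the highest 2-cell value. In control embryos the rise was 3.03 ± 0.14 log2 units (limma adjusted p = 6.2e-44). Fbl then went by -0.37 ± 0.15 log2 units to the morula (median 271 TPM) and by -0.98 ± 0.24 to the blastocyst (median 161 TPM), both with an adjusted p under 0.05 and both short of 1 log2 unit.

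Nop56 and Nop58 encode the paired scaffold proteins that hold fibrillarin on the guide RNA. Nop58 went from a median of 87.2 TPM (16.4 to 462) to 754 TPM (150 to 1452), a change of 3.04 ± 0.14 log2 units in control embryos (limma adjusted p = 8.9e-45). Nop56 went from 69.6 TPM (12.2 to 508) to 500.1 TPM (214 to 944), a change of 2.60 ± 0.17 (adjusted p = 3.2e-31). All 82 of the 4-cell embryos were above the 2-cell median for both genes. After the 4-cell stage the pair diverged: Nop58 had a morula median of 554 TPM and a blastocyst median of 247 TPM, while Nop56 had 352 and 342 TPM. From morula to blastocyst Nop56 changed by -0.03 ± 0.28 log2 units (adjusted p = 0.944) and Nop58 by -0.93 ± 0.23 (adjusted p = 0.00072). In low protein embryos the same step was -0.24 ± 0.21 for Nop56 and -1.21 ± 0.20 for Nop58, of which the latter passed both criteria. Without plate 6 the low protein value of Nop58 was -1.03 and was still called. Within plates 2, 3 and 6 its differences over both diets were -1.01, -1.01 and -1.59, and in control embryos without the plate term its change was -1.16 and was called. On plate 3 alone Nop58 was called lower both from the 4-cell stage to the morula (-1.03, adjusted p = 0.0041) and from morula to blastocyst (-1.01). The ratio of Nop58 to Nop56 within an embryo had a median of 1.07 in 2-cell embryos, 1.38 in 4-cell embryos, 1.63 in morulae and 0.694 in blastocysts, and its ranges at these stages overlapped.

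Of the box H/ACA core, Dkc1 encodes dyskerin, the pseudouridine synthase, and Nhp2 encodes a small protein bound beside it. Dkc1 had the smallest rise of the 9 genes, 1.33 ± 0.12 log2 units in control embryos (limma adjusted p = 5.9e-21), from a median of 104 TPM (35.6 to 308) to 283 TPM (41.9 to 496). Nhp2 rose by 2.94 ± 0.19 (adjusted p = 5.3e-32), from 106 TPM (8.18 to 2115) to 977 TPM (470 to 2645). The high end of the 2-cell range of Nhp2 was wide, and only 2 of the 4-cell embryos were above the highest 2-cell embryo, though all 82 were above the 2-cell median. Nhp2 had its highest large-stage median in morulae, 1361 TPM, where the difference from the 4-cell stage was 0.28 ± 0.20 (adjusted p = 0.204). It fell to a median of 543 TPM in blastocysts, by 1.41 ± 0.31 log2 units (adjusted p = 0.00010). Dkc1 had medians of 194 TPM in morulae and 117 TPM in blastocysts, and its change at the last step missed the threshold (-0.47 ± 0.19, adjusted p = 0.050).

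Nolc1 encodes Nopp140, a phosphoprotein that chaperones both kinds of particle between Cajal bodies and nucleoli. Of the 82 embryos of 4 cells, 80 were above the highest 2-cell embryo, and every morula was below the 4-cell median. Its medians were 47.5 TPM in 2-cell embryos (11.5 to 238), 522 TPM in 4-cell embryos (85.4 to 781), 195 TPM in morulae (44.6 to 469) and 63.9 TPM in blastocysts (30.7 to 102). In control embryos Nolc1 rose by 3.10 ± 0.13 log2 units (limma adjusted p = 1.2e-49), fell by 1.56 ± 0.14 to the morula (adjusted p = 1.9e-20) and fell by 2.08 ± 0.21 to the blastocyst (adjusted p = 3.4e-15). The direction of each of these steps was the same within every plate that held both stages, 6 plates for the rise, 6 for the first fall and 3 for the second. At the last step its change stood at percentile 2.78 of all genes tested. Between the 2-cell stage and the blastocyst the net change was -0.54 ± 0.21 log2 units (adjusted p = 0.013), which was not called.

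Rrp9 encodes a WD-repeat protein of the particle that guides the first cuts of the ribosomal RNA precursor. Its medians were 51.8 TPM in 2-cell embryos (3.98 to 431), 288 TPM in 4-cell embryos (68.9 to 493), 165 TPM in morulae (0 to 326) and 84.8 TPM in blastocysts (53.01 to 130). All 82 of the 4-cell embryos were above the 2-cell median, but only 5 were above the highest 2-cell embryo. The control embryos gained 1.93 ± 0.24 log2 units (limma adjusted p = 1.0e-12), lost 1.29 ± 0.26 to the morula (adjusted p = 4.6e-06) and lost 1.15 ± 0.40 to the blastocyst (adjusted p = 0.018). Within plates the rise ran from 0.16 log2 units on plate 3 to 3.82 on plate 6. On plate 3 the 2-cell embryos already had a median of 266 TPM of Rrp9, against 21.6 to 120 TPM on the other plates, and there the 4-cell median was 230 TPM. The fall to the morula was not called in low protein embryos, at -0.66 ± 0.21 (adjusted p = 0.0035), nor on plate 3 alone, at -0.46, nor after quantile normalization, at -0.97. The fall to the blastocyst was not called with a pseudocount of 0.1 (-1.09, adjusted p = 0.075), without the plate term (-0.54) or after quantile normalization (-0.97). The only morula in which Rrp9 was listed at 0 is a control embryo with 3901 genes above 0.

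**Figure D3:**
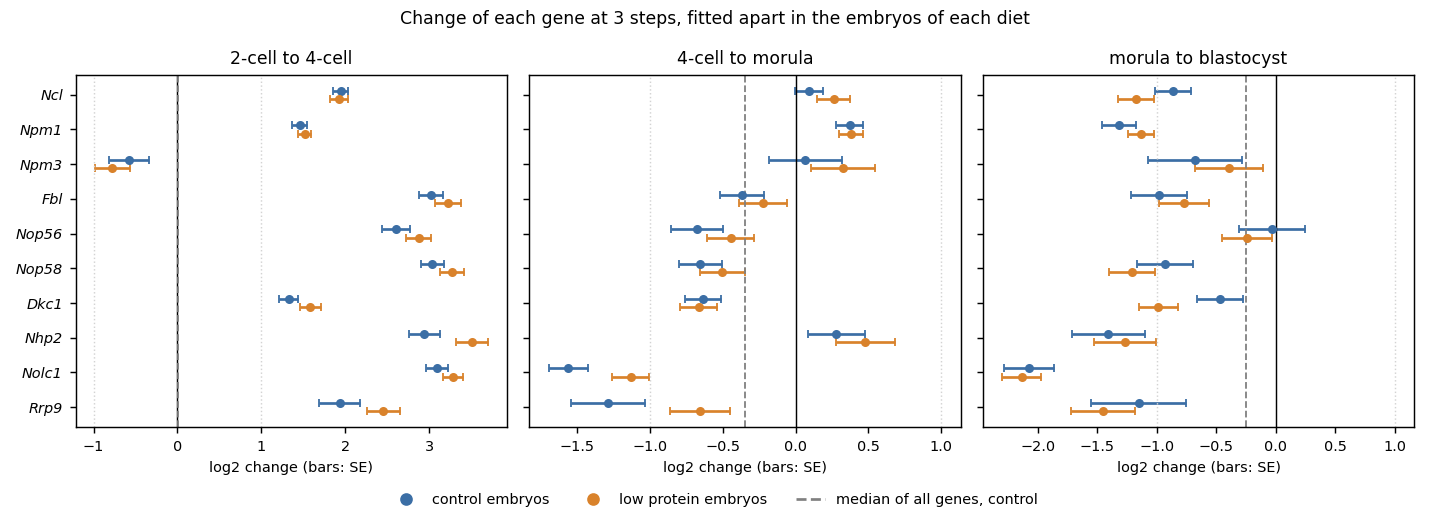
Fitted log2 change of each gene at 3 steps with its standard error, in control embryos (blue) and low protein embryos (orange), with the median of all genes in control embryos as a dashed line and dotted lines at 1 log2 unit. At the first step 9 genes lie above 1 in both diets and Npm3 lies below 0, and at the last step Nolc1 lies farthest to the left.

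Embryos of low protein sires were fitted on their own. They have other sires than the control embryos and share the plates and most oocyte donors with them. The same 9 genes passed the threshold from the 2-cell to the 4-cell stage, by 1.52 ± 0.08 log2 units for Npm1 to 3.51 ± 0.19 for Nhp2, beside 34.9% of 10901 genes called higher. At the step to the morula 2 genes fell in control embryos, beside 26.8% of all genes called lower, and in low protein embryos only Nolc1 did, by 1.13 ± 0.13 (adjusted p = 3.1e-14), beside 24% of genes. At the step to the blastocyst 4 genes fell in control embryos, beside 17.1% of all genes, and 6 in low protein embryos, beside 19.3%, the added ones being Ncl and Nop58. Without plate 6, whose 5 blastocysts had morula levels of trophectoderm markers, 6 were called in low protein embryos, with Fbl (-1.10) in and Ncl out. The difference between the diets in these steps was not tested. At those steps 10% and 7.1% of all genes were called higher in control embryos and 11.6% and 4.61% in low protein embryos, and 0 of the 10 were. Between the 2-cell stage and the blastocyst 5 genes ended higher in control embryos (Nop56, Nhp2, Fbl, Nop58 and Ncl, by 1.17 to 1.89 log2 units) beside 25.7% of all genes, and Npm3 ended lower beside 47.2%. On plate 3 alone Nop56 (0.51), Nop58 (0.19) and Nhp2 (0.99) were not called over this course, and Rrp9 was called lower (-1.62). From the 2-cell stage to the morula 7 were higher, beside 30.2% of all genes, and from the 4-cell stage to the blastocyst 6 were lower, beside 40.7%, Nolc1 by -3.64 ± 0.21 log2 units. The 10 genes together took a median of 0.228% of an embryo's total in 2-cell embryos, 0.819% in 4-cell embryos, 1.09% in 8-cell embryos, 0.967% in morulae, 0.407% in blastocysts and 0.316% in late blastocysts.

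The 4 embryos of the 8-cell stage were all on plate 3, so they were compared within it. Nolc1 was at 445 and 424 TPM in the 2 control and at 520 and 456 TPM in the 2 low protein embryos, against a median of 555 TPM in the 4-cell embryos and 180 TPM in the morulae of that plate. Nop58 was at 792, 736, 977 and 905 TPM, in the same order, and Npm1 was at 6701, 5290, 7157 and 6887 TPM. Npm3 was at 6.26, 5.27, 10.2 and 3.71 TPM, as low as in the other embryos of plate 3. From the 4-cell to the 8-cell stage 0 of the 10 genes were called, and 0 had an unadjusted p under 0.05, beside 1.05% of 10355 genes called higher and 4.2% lower. From the 8-cell stage to the morula Nolc1 alone of the 10 was called, with a fall of 1.37 ± 0.33 log2 units (limma adjusted p = 0.0022), beside 12.2% of genes called lower and 9.87% higher.

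The 5 late blastocysts were all on plate 7, where they were compared with the 4 morulae. Npm1 was at 1690 and 1073 TPM in the 2 control and at 1606, 985 and 1434 TPM in the 3 low protein embryos, all below the lowest morula of that plate, which had 5195 TPM, and the fall was 2.42 ± 0.27 log2 units (limma adjusted p = 3.0e-05). Rrp9 fell by 1.29 ± 0.37 (adjusted p = 0.028), Nop58 by 1.14 ± 0.30 (adjusted p = 0.016) and Ncl by 1.06 ± 0.33 (adjusted p = 0.040). These 4 calls stood beside 9.31% of 9967 genes called lower and 4.99% higher. Only 2 of the 10 were called without control embryo 1, without control embryo 2 or without low protein embryo 2, 3 without low protein embryo 1 or 3, and 1, Npm1, after quantile normalization. Nop56 was at 590 and 428 TPM in the control and 225, 341 and 268 TPM in the low protein late blastocysts, and its difference from the morulae was 0.43 ± 0.35 (adjusted p = 0.441). Npm3 was at 253 and 203 TPM in the control and at 39.9, 66.8 and 31.9 TPM in the low protein late blastocysts. For both genes the diets did not overlap, while in each of the other genes of the 10 they did. With 2 embryos against 3 from 1 sire each no test was made, and so few embryos can also separate by chance. The share of all genes without overlap was not counted.

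The 5 blastocysts of plate 6 all had low protein sires, so diet and plate cannot be told apart in them, and their low trophectoderm markers are given above. The part of those markers in the values below was not tested. They had Ncl at 31.3, 49.9, 32.4, 49.3 and 77.3 TPM, below the control range of 101 to 177 TPM. Nolc1 was at 33.1, 45.3, 35.2, 30.7 and 80.5 TPM, against a control range of 34.1 to 83.96 TPM. Fbl was at 399, 405, 496, 293 and 271 TPM, above the control range of 101 to 197 TPM. Against the control blastocysts, all on plate 2 or 3, Ncl and Fbl thus differed in opposite directions in the same embryos. The 15 morulae of plate 6 had Fbl at 139 to 556 TPM around a median of 455 TPM. They had Ncl at 113 to 281 TPM around 178 TPM. From those morulae to these 5 blastocysts the difference in mean log2 value was -0.12 for Fbl and -1.96 for Ncl.

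The other genes of ribosome assembly moved with the 10. Of 160 other genes of the 6 pathway lists below, 145 rose and 2 fell from the 2-cell to the 4-cell stage. Of all genes, 34.9% were called higher and 36.9% lower. The median change of the 160 was 2.33 log2 units beside 0.01 for all genes. All 3 other small nucleolar RNP core proteins rose (2 after quantile normalization): Gar1, of the box H/ACA core, went from 18.5 ± 10.01 to 114 ± 40.7 TPM (SD, 41 and 42 embryos), Nhp2l1, of the box C/D core, from 701 ± 414 to 2079 ± 800 TPM, and Nop10, of the box H/ACA core, changed by 1.06 ± 0.16 log2 units. Of 13 assembly factors 12 rose, led by Znhit3, which helps load the box C/D scaffold, at 3.74 ± 0.18 log2 units (limma adjusted p = 8.7e-42), and Pih1d1, of the same loading machinery, at 3.06 ± 0.23. Of 20 genes of RNA polymerase I and its factors 18 rose, led by the shared polymerase subunits Polr2k (4.02 ± 0.22) and Polr2h (3.79 ± 0.19).

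Of 52 genes listed under the small subunit processome, the complex that folds and cuts the early precursor, 47 rose and 1 fell. The list also holds factors of later small subunit maturation. Tbl3 went from 17.5 ± 39.2 to 434 ± 123 TPM (SD, 41 and 42 embryos), a change of 6.08 ± 0.28 log2 units (limma adjusted p = 1.6e-45), and Mybbp1a from 12.9 ± 21.3 to 332 ± 131 TPM. Riok1, a kinase of late small subunit maturation, fell from 183 ± 110 to 28.2 ± 13.04 TPM. Of 58 large subunit assembly genes 54 rose and 0 fell, led by Wdr74 from 26.9 ± 36.4 to 722 ± 144 TPM and Nle1 from 5.15 ± 10.5 to 84.7 ± 21.8 TPM. Of 14 genes of the RNA exosome, which trims the precursor, 11 rose, led by Exosc5 (5.66 ± 0.24) and Exosc4 (3.82 ± 0.23). Mphosph6, an exosome cofactor, fell from 9302 ± 4088 to 169 ± 57.98 TPM, a change of -5.49 ± 0.14 log2 units (adjusted p = 1.5e-72), and had been far more abundant in 2-cell embryos than any of the 10 genes.

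After the 4-cell stage the lists fell in part. To the morula, 74 of the 160 genes fell and 0 rose (median -0.95, beside -0.35 for all genes), beside 26.8% of all genes called lower and 10% higher. Those of the 160 that fell included Znhit3 (-2.05 ± 0.20), Coil (-1.83 ± 0.26), Taf1b (-2.35 ± 0.22), Polr1e (-2.16 ± 0.27), Rrp12 (-2.07 ± 0.22), Rrp7a (-1.83 ± 0.24), Ddx31 (-1.95 ± 0.22), Zfp622 (-1.91 ± 0.26), Exosc10 (-1.86 ± 0.17), Dis3 (-1.55 ± 0.22) and Nhp2l1 (-1.20 ± 0.11). After quantile normalization, which moves the median of all genes at this step from -0.35 to -0.02, 45 of the 160 fell. The shares of all genes called lower after it, at this step or the next, are not given here. From morula to blastocyst, beside 17.1% of all genes called lower and 7.1% higher, 74 of the 160 fell and 0 rose (median -0.97, beside -0.25). After quantile normalization 31 of the 160 fell. The leading falls there were Tma16 (-3.68 ± 0.38), Sdad1 (-1.81 ± 0.26), Ddx21 (-2.29 ± 0.27), Dimt1 (-2.15 ± 0.36), Taf1a (-1.96 ± 0.29), Polr1e (-1.95 ± 0.43), Exosc5 (-1.93 ± 0.39), Znhit6 (-1.79 ± 0.32), C1d (-1.45 ± 0.31), Znhit3 (-1.44 ± 0.31), Nop10 (-1.42 ± 0.26) and Gar1 (-1.29 ± 0.29). By list, the genes that fell at this step were 2 of 3 core proteins, 3 of 13 assembly factors, 8 of 20 polymerase I genes, 24 of 52 genes of the processome list, 31 of 58 large subunit genes and 6 of 14 exosome genes. The 3 of 13 assembly factors lay near the 17.1% of all genes.

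**Figure D4:**
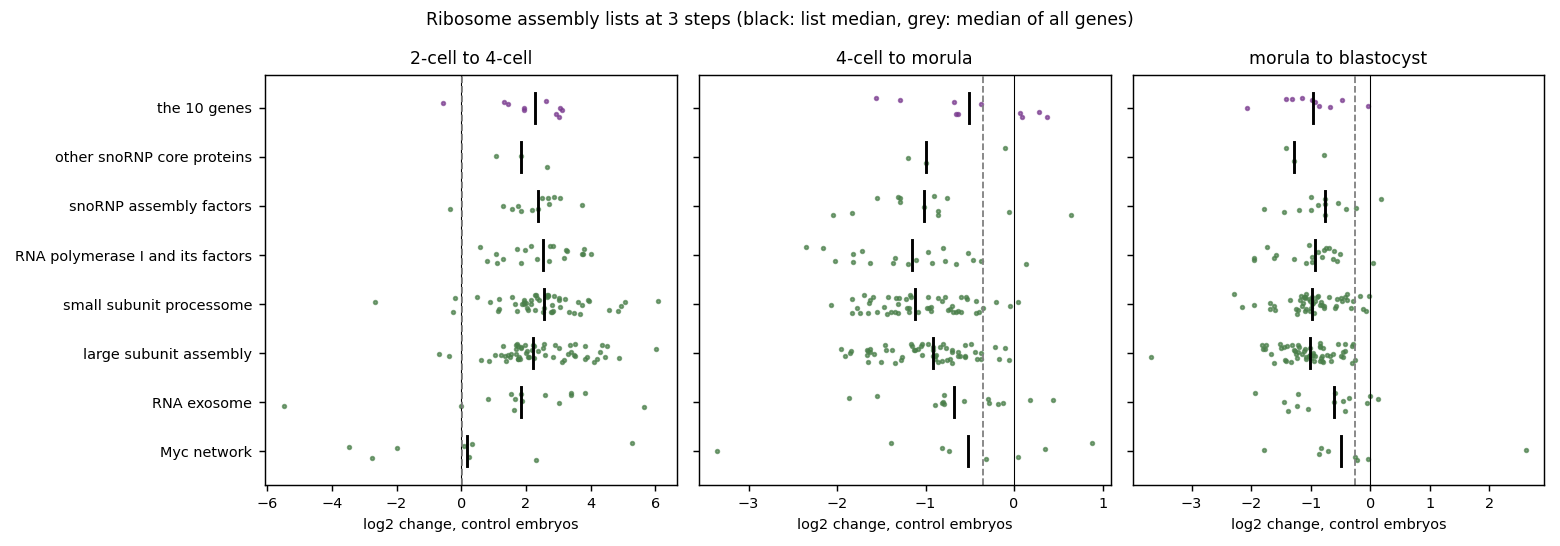
Fitted log2 change of the 10 genes and of each gene of 7 other lists at 3 steps in control embryos (points), with the list median in black and the median of all genes as a dashed line. The assembly lists lie mostly above 0 at the first step and mostly below 0 at the later ones, while the Myc network holds both signs.

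Myc, a transcription factor known to drive many nucleolar genes in other cells, was listed at 0 in 36 of 80 2-cell embryos and had a median of 0.95 TPM there. In 4-cell embryos its median was 120 TPM (0 to 313), and the change in control embryos was 5.29 ± 0.28 log2 units (limma adjusted p = 4.8e-39). It fell by 3.35 ± 0.29 to the morula (adjusted p = 3.9e-20). Max, the partner of Myc, went from 317 ± 171 to 45.1 ± 23.1 TPM (SD, 41 and 42 embryos) at the first step, where it fell by 2.77 ± 0.24 log2 units. The genes of Max-binding repressors, Mxd1 and Mxd4, also fell there, by 3.48 ± 0.17 and 1.99 ± 0.31 log2 units, while Mxd3 rose by 2.31 ± 0.28. Mycn, a second Myc gene, rose at the last step from 2.22 ± 2.76 (n = 38) to 33.6 ± 15.9 TPM (n = 14). Mga (0.32 ± 0.15) and Mlx (0.10 ± 0.27) were not called at the first step, where 2 genes of the network rose, 3 fell and 3 were not called.

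Npm2, the oocyte member of the nucleoplasmin family, fell at each of the 3 steps. It had a median of 1064 TPM in 2-cell embryos, 48.7 TPM in 4-cell embryos and 3.41 TPM in morulae, and was listed at 0 in 28 of 36 blastocysts. In control embryos its changes were -3.94 ± 0.19, -4.04 ± 0.20 and -1.33 ± 0.31 log2 units (limma adjusted p = 7.7e-44, 8.2e-41 and 0.00025). Rn45s, the annotated ribosomal RNA precursor, was not called at any of the 3 steps, with changes of 0.65 ± 0.23, -0.01 ± 0.24 and 0.23 ± 0.38 log2 units. After quantile normalization its first change was 1.02 and was called. Its median was 14658 TPM in 2-cell and 21220 TPM in 4-cell embryos.

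Among the 2-cell embryos, most of the 10 genes varied together. After plate means were removed, the Pearson correlation of log2 values over 80 embryos was 0.68 for Nop56 with Nhp2, 0.68 for Nop56 with Nolc1, 0.66 for Nop56 with Rrp9 and 0.65 for Fbl with Nop56. The median of all 45 pairs was 0.36, and 0.49 without Npm3, beside 0.057 for pairs of all genes kept. Npm1 stood apart from this group, with 0.02 to Ncl and -0.15 to Rrp9. The median pair was at 0.053 in 4-cell embryos, 0.089 in morulae and 0.14 in blastocysts, beside 0.065, 0.15 and 0.051 for all genes. These values describe embryos that share libraries made on 1 plate, sires and a fixed TPM total.

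**Figure D5:**
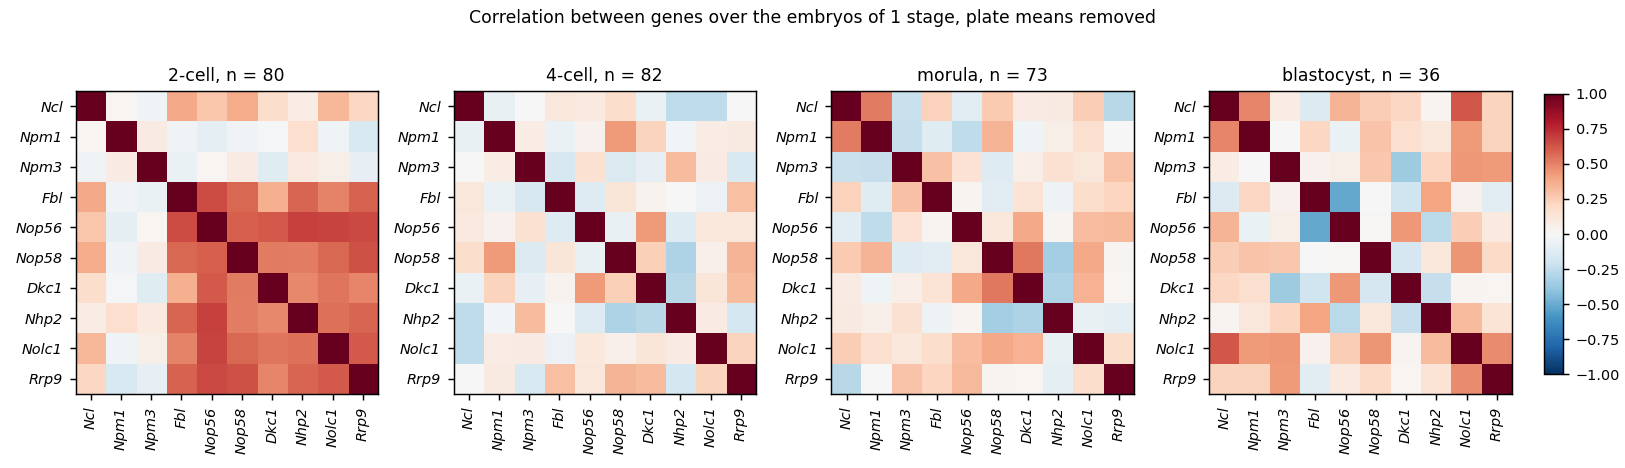
Pearson correlation between the 10 genes over the embryos of each large stage, with plate means removed, on a colour scale from -1 to 1. In 2-cell embryos 7 genes from Fbl to Rrp9 form a red block, which the other stages lack.

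The mean log2 value of the 10 genes over 2-cell embryos had a Pearson correlation of 0.92 (Spearman 0.89, n = 80) with the mean of the polymerase I list. It was 0.83 (0.79) with the large subunit list and 0.70 (0.61) with the small subunit processome list. In 4-cell embryos the value with the polymerase I list was 0.46 (0.33, n = 82). In 2-cell embryos the correlation with Npm2 was -0.30 (-0.33), and -0.55 after plate means were removed. With Rn45s it was -0.12 (-0.01) and with Myc 0.06 (0.05). The 2-cell embryos of plate 3 had medians of 270 TPM of Nop56, 215 TPM of Nop58, 502 TPM of Nhp2 and 527 TPM of Npm2, where plate 1 had 63.9, 70.4, 76.9 and 1272 TPM. The rise to the 4-cell stage was positive in each of 6 plates for these genes, with lowest values of 1.12 log2 units for Nop56, 2.25 for Nop58 and 1.66 for Nhp2.

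Over all 280 embryos, the genes most like the mean of the 10, out of 5323 genes averaging 20 TPM or more, were Wdr45 (Pearson r of 0.934), Set (0.931), Impdh2 (0.928), Folr1 (0.921), Eif3c (0.921), Rpf2 (0.920), Dnttip2 (0.920), Wdr74 (0.915), Rpl7l1 (0.914) and Ubxn1 (0.913). Impdh2, the enzyme that commits purines to guanine nucleotides, had medians of 65.4 TPM in 2-cell embryos, 4011 TPM in 4-cell embryos, 1392 TPM in morulae and 325 TPM in blastocysts. Set, a histone chaperone, had 136, 2154, 1255 and 618 TPM. Of the 10 themselves Nop58 had the highest correlation with the mean (0.939) and Npm3 the lowest (-0.046). Each of the 10 is part of that mean, which raises its value, so these do not compare with those of the genes outside it. Npm3 was most like Emd (0.718) and Snrpd3 (0.703), and Nolc1 was most like Gcsh (0.916).

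By diet of the sire, 0 of the 10 genes passed at any of the 4 stages tested, and neither did any other gene: at an adjusted p under 0.05, limma called 0 of 10314 genes in 2-cell embryos, 0 of 9820 in 4-cell embryos, 0 of 9552 in morulae and 0 of 9378 in blastocysts, each 0%. Unadjusted p-values under 0.05 numbered 717, 511, 996 and 322 genes. The blastocysts came from only 2 control and 3 low protein sires. Their 5 embryos on plate 6 had no control on that plate, so with the plate term they add nothing to the diet comparison. In 2-cell embryos 9 of the 10 genes were lower in low protein embryos, with a median difference of -0.30 log2 units beside 0.02 for all genes. Rrp9 had a median of 69.2 TPM in control (18.1 to 426) and 43.1 TPM in low protein 2-cell embryos (3.98 to 431), a difference of -0.66 ± 0.22 log2 units (p = 0.0043, limma adjusted p = 0.706). It was lower in 5 of 6 plates. Nhp2 differed by -0.68 ± 0.28 (p = 0.019) and Nop56 by -0.43 ± 0.22 (p = 0.049), both with adjusted p = 0.706, while Npm1 and Ncl were at -0.00 ± 0.07 and -0.02 ± 0.10. Nhp2 and Nop56 were each lower in 4 of 6 plates. Of 159 other genes of the 6 lists tested at this stage 130 were lower in low protein embryos, with a median of -0.22, and 0 were called. The share of all genes below 0 is not given here. Most of the 10 genes varied together among 2-cell embryos, so their signs are not separate observations. The diets overlapped in each of the 5 genes named.

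In 4-cell embryos the differences of the 10 genes ran from -0.19 (Rrp9) to 0.04 (Npm1), and 0 had an unadjusted p under 0.05. In morulae all 10 were above 0, with a median of 0.07 beside 0.12 for all genes. The share of all genes above 0 is not given here. Nolc1 differed by 0.34 ± 0.12 log2 units (p = 0.0047, limma adjusted p = 0.320), with medians of 164 TPM in control and 209 TPM in low protein morulae, and was higher in 5 of 6 plates. Rrp9 differed by 0.51 ± 0.25 (p = 0.044, adjusted p = 0.464) and was higher in 6 of 6 plates, and without the control morula in which it was listed at 0 the difference was 0.34. In blastocysts the differences ran from -0.24 (Dkc1) to 0.17 (Nolc1), and 0 had an unadjusted p under 0.05.

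Whether the diet difference changed with stage was tested directly. Over the 4 stages 0 of the 10 genes passed, beside 6 of 10899 genes (0.0551%), and the smallest values were those of Rrp9 (p = 0.00040, limma adjusted p = 0.137), Nolc1 (p = 0.0010, adjusted p = 0.154) and Nhp2 (p = 0.0041, adjusted p = 0.267). For Rrp9 the differences were -0.66, -0.19, 0.51 and 0.05 log2 units in 2-cell embryos, 4-cell embryos, morulae and blastocysts. Embryos of 1 sire were treated as independent in these fits, and with sire as a correlated block 0 of the 10 genes were called at any stage. In blastocysts the fitted correlation within sires was -0.04, so there the block gave no stricter test.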

How the data were processed

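Single embryos were sequenced with a single-cell RNA kit and Nextera libraries, per the labels' protocols. The values are TPM made by the authors and used as deposited. The submitters' processing notes name Bowtie and mm10, and the annotation and counting are not given in the sources used here. TPM sums per embryo ran from 985115 to 998407. The unit fixes such sums near a common total, so they say nothing of depth or precision. Plates were read from the sample titles, and sire and oocyte donor from rows of the deposited table.

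TPM were taken as log2(TPM + 1), a scale that understates changes of low genes, and fitted with limma 3.58.1 in R 4.3.3 (trend and robust) with plate as covariate and Benjamini-Hochberg adjustment. Genes reaching 1 TPM in 25% of a fit's embryos were kept, and all 10 genes were. Control embryos of the 4 large stages shared 1 fit for the stage steps. The 8-cell steps were fitted within plate 3 and the late blastocyst step within plate 7, with diet as covariate. Diet was tested per stage, and across stages by an F test. The fits were tested on simulated data, counting genes at an adjusted p under 0.05. A change of 1 log2 unit was recovered in 82% of cases from the 2-cell to the 4-cell stage and 34.8% from morula to blastocyst. It was recovered in 11.6% from the 4-cell to the 8-cell stage and 2.8% from morula to late blastocyst. A diet difference of 0.5 log2 units was recovered in 21.6% (blastocysts) to 41.6% (4-cell embryos), so smaller differences could be missed. Embryos of 1 sire or oocyte donor counted as separate samples, so p-values measure the spread between embryos. Python 3.11.15 with numpy 2.4.6, pandas 2.3.3 and matplotlib 3.10.9 did the rest.

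The 10 genes and the lists were chosen with earlier results of these data known. From each list the text names up to 2 called genes with the largest rise and 2 with the largest fall per step, if they averaged 20 TPM in either stage, and the Myc network, Npm2 and Rn45s whole; Nop10 at the first step was named after its value was seen. Mycl, Mxi1 and Mnt were not analysed here. Alternatives were another pseudocount (0.1), unfiltered genes, quantile normalization, dropping Rn45s, dropping embryos with under 5000 genes, no plate term, low protein embryos, plate 3 alone, sire or oocyte donor as a block, and leaving out single plates or small-stage embryos.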

Additional observations from a re-analysis of the deposited data

How the results depend on the processing

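Of the 10 genes, 2 were called from the 4-cell stage to the morula in control embryos, 1 after quantile normalization and 1 in low protein embryos. From the morula to the late blastocyst 4 were called, 1 after quantile normalization, and 2 to 3 with 1 late blastocyst left out. No direction of a called value turned under the alternatives run. Called genes of all from the 4-cell to the 8-cell stage numbered 544, and 235 to 312 without control replicate 1, low protein replicate 1 or low protein replicate 2. For diet, called genes went from 0 to 1 in 2-cell embryos (pseudocount of 0.1, or plate 3 left out), from 0 to between 1 and 3 in morulae (quantile normalization, embryos under 5000 genes, plate 3 or plate 4 left out) and from 0 to 31 in blastocysts with sire as a block. For diet by stage they went from 6 to 0 (pseudocount of 0.1), 15 (no filter), 2 (quantile normalization) and 1 (embryos under 5000 genes left out). None of the 10 genes was among these. On plate 3 alone Rrp9 (0.14) and Dkc1 (0.70) were not called from the 2-cell to the 4-cell stage. Other genes whose call changed from morula to blastocyst or over the whole course stand with their values above. The causes were not tested. Oocyte donor as a correlated block and low protein embryos without plate 6 were added after seeing the data. With the donor block the 10 genes had 9, 2, 4 and 6 calls at the 3 steps and over the whole course, as without it, and 0 for diet at each stage.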
